A study of Mus musculus with 18 samples.

Results

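Heme synthesis, binding and breakdown were described in mouse liver through 9 genes chosen by symbol: Alas1, Alad, Uros, Urod, Cpox and Fech, which encode enzymes that make heme, Hmox1, which encodes the inducible enzyme that opens it, and Hp and Hpx, which encode the plasma proteins haptoglobin and hemopexin. All 9 were among the 18108 genes of the Pico table, the 18051 of the V4 table and the 19424 of the TruSeq table, out of 21018 genes found in at least 1 table.

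Liver RNA came from 6 male C57/B6J mice aged 12 weeks, which had no allele or agent named other than the injection. Mice I9579, I9582 and I9583 received IL-1β, a cytokine that starts the hepatic acute-phase response, at 20 µg/kg, and mice U9574, U9575 and U9576 received saline, both by intraperitoneal injection 4 hours before the livers were taken after perfusion. RNA of each mouse entered 3 kits, giving 18 libraries: Pico is a stranded total RNA kit for minute input, V4 an unstranded poly(A) kit for minute input and TruSeq a stranded poly(A) kit. The kits differed in RNA input and PCR cycles, and TruSeq also in read length and sequencer from the other kits. The paper credits the TruSeq experiment to an earlier study. The effects of these differences cannot be told apart from those of the kit. The gene counts of a library summed to 4024632 to 4134070 (Pico), 12013453 to 12352473 (V4) and 12348864 to 12858237 (TruSeq), and a level below is given as CPM, the counts per 1000000 counts of the library. The tissue label was met by the hepatocyte markers, all 7 of which were measured in every kit and together took at least 40416 CPM in every library.

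Heme is built in a chain of enzymes that starts and ends in the mitochondrion and runs through the cytosol between. In liver much of it goes into cytochrome P450 enzymes, and the first enzyme, ALAS1, sets the rate and is held back by heme itself. Heme that is released from proteins is toxic, so haptoglobin binds free hemoglobin and hemopexin binds free heme in plasma, and heme oxygenase turns heme into biliverdin, iron and carbon monoxide.

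The upstream sequences are shown for 4 genes whose levels the results turn on, as RefSeq gives them in GRCm38.p6 and on the gene's own strand. RefSeq entries were matched for 6 of the 9 genes, and Fech, Hmox1 and Hp had none. For Alas1 the run covers the 250 bases before 1 of its 2 start sites at chr9:106247955-106248204, and for Hpx the 250 bases at chr7:105600117-105600366, both on the minus strand. For Urod and Cpox it covers the last 150 bases before the start site, at chr4:116994414-116994563 on the minus strand and chr16:58670058-58670207 on the plus strand. Capitals mark letters that matched a searched motif.
Alas1: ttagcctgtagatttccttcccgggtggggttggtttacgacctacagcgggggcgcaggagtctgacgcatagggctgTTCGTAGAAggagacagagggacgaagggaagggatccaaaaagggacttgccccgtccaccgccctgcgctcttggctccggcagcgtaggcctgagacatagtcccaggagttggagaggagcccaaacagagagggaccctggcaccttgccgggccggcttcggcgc
Hpx: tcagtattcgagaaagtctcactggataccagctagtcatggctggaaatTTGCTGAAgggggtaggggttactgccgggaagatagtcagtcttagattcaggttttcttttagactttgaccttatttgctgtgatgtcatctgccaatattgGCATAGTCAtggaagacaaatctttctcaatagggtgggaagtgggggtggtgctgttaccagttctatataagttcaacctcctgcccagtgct
Urod: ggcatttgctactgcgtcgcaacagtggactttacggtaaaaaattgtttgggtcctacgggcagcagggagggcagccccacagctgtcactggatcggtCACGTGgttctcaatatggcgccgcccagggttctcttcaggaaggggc
Cpox: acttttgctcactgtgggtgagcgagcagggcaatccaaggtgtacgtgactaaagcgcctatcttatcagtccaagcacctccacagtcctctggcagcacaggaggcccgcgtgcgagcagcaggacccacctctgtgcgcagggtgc

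In Alas1 the letters TTCGTAGAA at -171 to -163 from the start site matched the STAT3 motif TTCNNNGAA, which 7.02% of the 32851 upstream windows of 250 bases in the table held on either strand. In Hpx the letters TTGCTGAA at -200 to -193 matched the C/EBP motif TTGCNNAA, held by 9.56% of windows. Those at -95 to -87 matched the antioxidant response element TGACNNNGC on the other strand, held by 10.2%. Urod held the E-box CACGTG at -49 to -44, a motif in 6.02% of windows that Alad and Uros also held. Alad held the NF-kappaB motif GGGNNTTCC, found in 4.98% of windows, and the second Alas1 window held the NRF1 motif GCATGCGC, found in 2.26%, as matches on both strands that overlapped each other. The AP-1 motif TGANTCA, in 6.75% of windows, and the FOXO motif GTAAACA, in 3.17%, were in none of the 9 windows of these 6 genes, and Cpox held no searched motif. These are matches of letters only.

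The question put to each kit was which heme genes differed between IL-1β and saline 4 hours after injection. In all 3 kits Hp, Hpx and Hmox1 were higher and Cpox and Fech were lower after IL-1β, at a limma-voom adjusted p of 0.05 or less, called here. Urod was called lower in 2 kits and Uros in 1, while Alas1 and Alad were called in none. In Pico 3 of the 9 genes were called higher, where 6.78% of all genes were, and 3 lower, where 10.8% were. In V4 3 were called higher against 3.6% of all genes and 2 lower against 7.41%. In TruSeq 3 were called higher against 12.3% of all genes and 4 lower against 21.8%. The CPM of the treatments did not overlap for 6 of the 9 genes in Pico (31.2% of all genes), for 7 in V4 (27.6%) and for 8 in TruSeq (44.9%). In bulk tissue, fewer cells of a type and less RNA per cell cannot be told apart.

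These fits used library totals, under which the log2 fold change of all genes had a median of -0.12 (Pico), -0.22 (V4) and -0.17 (TruSeq). TMM factors, which scale on the bulk of genes, moved that median up by 0.13, 0.17 and 0.16, so a log2 fold change near these sizes depends on the scaling. With them the higher calls made up 52.9% of the calls in Pico (38.6% with totals), 49.7% in V4 (32.7%) and 50.9% in TruSeq (36%).

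**Figure D1:**
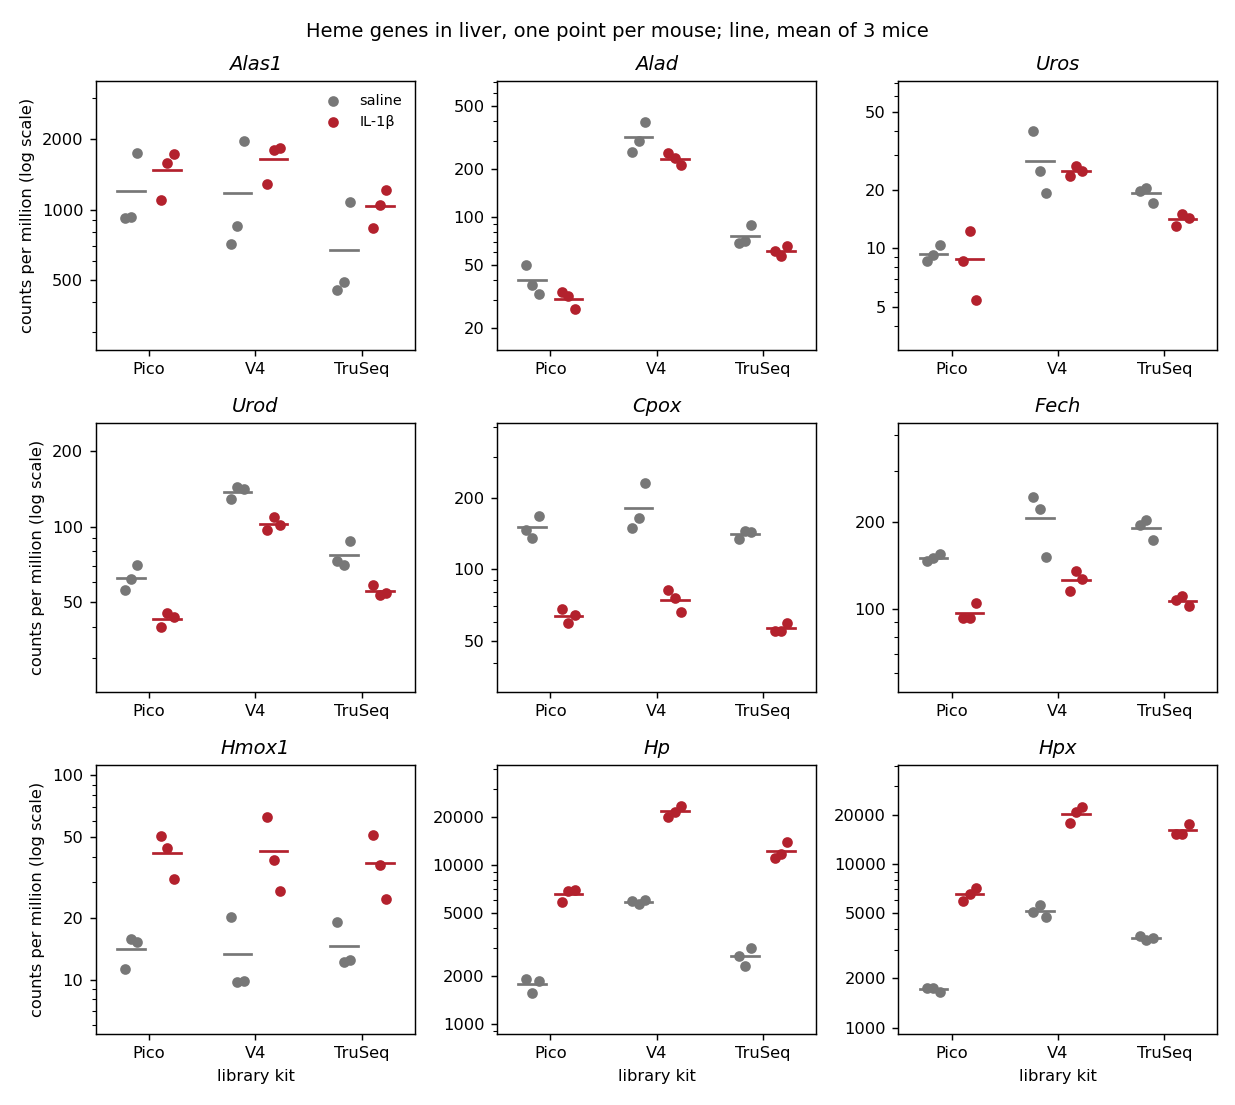
CPM (log axis) of the 9 heme genes in each library kit, with one point per mouse (grey, saline; red, IL-1β; n = 3 each) and a line at the mean. Hp, Hpx and Hmox1 lie higher and Cpox and Fech lower after IL-1β in every kit, and 1 saline mouse lies among the IL-1β mice for Alas1.

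Alas1 (ENSMUSG00000032786, 11 exons, chr9:106135786-106150457 in mm9, minus strand) makes 5-aminolevulinic acid, the first step of the chain. In Pico its level was 1100, 1584 and 1733 CPM in I9579, I9582 and I9583, and 920, 932 and 1740 CPM in U9574, U9575 and U9576. In V4 it was 1291, 1793 and 1839 CPM after IL-1β and 713, 846 and 1974 CPM after saline, in the same order of mice. In TruSeq it was 834, 1050 and 1210 CPM after IL-1β and 452, 487 and 1082 CPM after saline. The groups overlapped in each kit because of saline mouse U9576, which stood 1.88-fold above the mean of the other saline mice in Pico, 2.53-fold in V4 and 2.3-fold in TruSeq. Over all 6 mice the log2 fold change was 0.34 (SE 0.19, adjusted p = 0.264) in Pico, 0.61 (SE 0.30, adjusted p = 0.246) in V4 and 0.72 (SE 0.29, adjusted p = 0.0835) in TruSeq. When each mouse was left out in turn, the call changed in every kit with U9576 alone. Without that mouse Alas1 was called higher, with a log2 fold change of 0.64 (adjusted p = 0.0346) in Pico, 1.06 (adjusted p = 0.014) in V4 and 1.12 (adjusted p = 0.0052) in TruSeq. With all mice it was called by edgeR in Pico (0.42, adjusted p = 0.00177) and with TMM factors in TruSeq (0.88, adjusted p = 0.0409). It was not called by edgeR in V4 (adjusted p = 0.121) or TruSeq (adjusted p = 0.0606), or with TMM factors in Pico (adjusted p = 0.0964) or V4 (adjusted p = 0.132). DESeq2 called it in no kit (adjusted p = 0.493, 0.138 and 0.196 in Pico, V4 and TruSeq). The gene shares 114 exon bases with the lincRNA 4930500F10Rik on the opposite strand, which V4 could not separate and which had 8 sense counts over all Pico libraries.

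The mice also stood in a fixed order for some genes. The order of the IL-1β mice was the same in all 3 kits for 3 of the 9 genes, Alas1, Hmox1 and Hp, and that of the saline mice for 1, Alas1. Over the 8960 genes that averaged 20 counts or more in all kits, 9.15% and 8.91% did so. For Alas1 and Hp mouse I9583 was highest and I9579 lowest, and for Hmox1 it was the reverse.

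**Figure D2:**
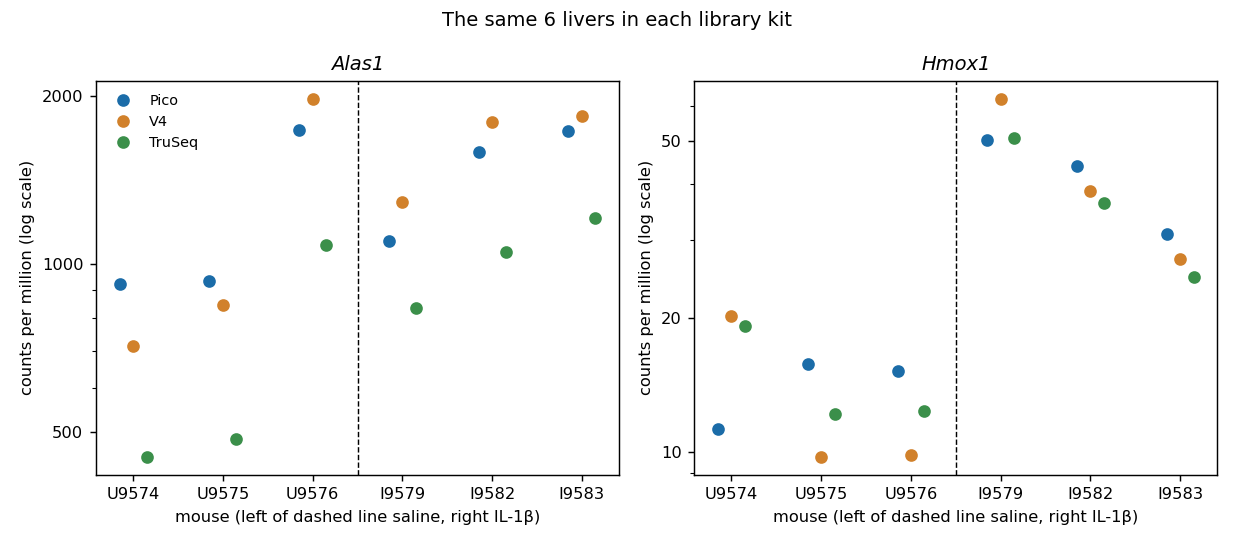
CPM (log axis) of Alas1 and Hmox1 in each of the 6 mice, with saline mice left and IL-1β mice right of the dashed line and one colour per kit. Saline mouse U9576 lies with the IL-1β mice for Alas1 in all 3 kits, and the IL-1β mice keep one order for Hmox1.

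Alad (ENSMUSG00000028393, 11 exons, chr4:62170203-62180952, minus strand) joins the products of ALAS1 to porphobilinogen. Its level after IL-1β and after saline was 26.5 to 33.6 and 33.1 to 50.2 CPM in Pico, 213 to 252 and 254 to 396 CPM in V4, and 57.3 to 65.5 and 69 to 88.7 CPM in TruSeq. The groups overlapped in Pico and lay side by side without overlap in V4 and TruSeq. The log2 fold changes were -0.38 (adjusted p = 0.253), -0.42 (adjusted p = 0.161) and -0.31 (adjusted p = 0.0742), in the same order, and none was called.

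Uros (ENSMUSG00000030979, 9 exons, chr7:140877926-140901755, minus strand) closes the porphyrin ring. Its counts were the lowest of the 9 genes in Pico, at 22 to 49 a library, where its values are least precise. In TruSeq its level was 13, 15 and 14.3 CPM after IL-1β and 19.7, 20.5 and 17.1 CPM after saline, and the log2 fold change of -0.43 (SE 0.13) was called lower (adjusted p = 0.0246). That call did not hold with TMM factors (-0.27, adjusted p = 0.129), edgeR (-0.28, adjusted p = 0.122) or DESeq2 (-0.28, adjusted p = 0.197), nor without any of 4 of the 6 mice. In Pico and V4 the groups overlapped, with log2 fold changes of -0.17 (95% confidence interval -0.92 to 0.58) and -0.10 (-0.71 to 0.51), whose sign turned under edgeR or DESeq2 in Pico and under TMM factors or DESeq2 in V4. The gene lies across Bccip on the opposite strand, with which it shares 0 exon bases.

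Urod (ENSMUSG00000028684, 10 exons, chr4:116662570-116667018, minus strand) removes carboxyl groups from the ring. Its level was 39.8, 45.2 and 43.8 CPM after IL-1β and 55.9, 61.9 and 70.4 CPM after saline in Pico. It was 96.8, 109 and 101 CPM against 129, 143 and 141 CPM in V4. In TruSeq it was 58.8, 53.3 and 54.6 CPM against 72.9, 70.2 and 87.5 CPM. Every IL-1β mouse lay below every saline mouse in each kit. The log2 fold change was -0.54 (SE 0.17, adjusted p = 0.0319) in Pico, -0.43 (SE 0.15, adjusted p = 0.0915) in V4 and -0.46 (SE 0.11, adjusted p = 0.0104) in TruSeq, so it was called lower in Pico and TruSeq. With TMM factors neither call held (Pico -0.41, adjusted p = 0.112, and TruSeq -0.30, adjusted p = 0.0658), and in Pico it was also lost without any 1 of 5 mice, with an adjusted p of up to 0.121.

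Cpox (ENSMUSG00000022742, 7 exons, chr16:58670321-58680504, plus strand) forms protoporphyrinogen in the mitochondrion, and it fell most of the 9 genes. Its level in Pico was 67.7, 59.6 and 63.9 CPM after IL-1β and 147, 136 and 169 CPM after saline. In V4 it was 81.7, 75.5 and 65.9 CPM against 149, 165 and 231 CPM. The TruSeq values were 54.7, 54.8 and 59.4 CPM against 134, 145 and 144 CPM. The groups were apart in every kit, with the 3 highest values in the saline mice. The log2 fold change was -1.24 (SE 0.14, adjusted p = 1.2e-05) in Pico, -1.27 (SE 0.20, adjusted p = 0.00274) in V4 and -1.32 (SE 0.09, adjusted p = 1.1e-05) in TruSeq, that is, 0.424, 0.415 and 0.4 of the saline level. Over 11 alternatives a kit it stayed between -1.40 and -1.08 and was called in each.

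Fech (ENSMUSG00000024588, 11 exons, chr18:64616204-64648720, minus strand) inserts iron to complete heme. In Pico its level was 92.9, 92.9 and 105 CPM after IL-1β and 147, 150 and 155 CPM after saline. In V4 it was 115, 135 and 127 CPM against 245, 222 and 151 CPM. TruSeq gave 107, 111 and 102 CPM against 196, 203 and 174 CPM. The groups did not overlap in any kit, and in V4 saline mouse U9576 lay nearest to the IL-1β mice. Its response was a log2 fold change of -0.64 (SE 0.12, adjusted p = 0.00142) in Pico, -0.69 (SE 0.20, adjusted p = 0.0475) in V4 and -0.84 (SE 0.10, adjusted p = 0.000168) in TruSeq. The call in V4, which stood just inside the threshold, did not hold with TMM factors (-0.52, adjusted p = 0.165), edgeR (adjusted p = 0.0888) or DESeq2 (adjusted p = 0.0721), nor without any of the other 5 mice, and without U9576 it was -0.90 (adjusted p = 0.00729).

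Alas2 and Ppox, also enzymes of heme synthesis, gave no call. Alas2, the ALAS of red cell precursors, had log2 fold changes of -0.12, -0.23 and -0.13 in Pico, V4 and TruSeq (adjusted p = 0.678, 0.554 and 0.494). Ppox, the enzyme before ferrochelatase, had -0.67, -0.16 and -0.28 (adjusted p = 0.184, 0.691 and 0.219). The difference between enzymes was not tested. The 12 erythroid marker symbols include Alas2, and also Epb4.2 and Epb42, which name 1 gene. Of these symbols 8, 6 and 8 were measured in Pico, V4 and TruSeq. Their summed levels, in that order, were 128 to 175, 351 to 858 and 141 to 214 CPM after IL-1β. After saline they were 186 to 194, 606 to 988 and 206 to 231 CPM. Of the measured genes only 1 was called, lower in Pico. The 7 hepatocyte markers also summed lower after IL-1β, to 63598 to 70742 CPM against 73315 to 85603 CPM in Pico, 40416 to 45842 against 48046 to 61056 CPM in V4 and 73257 to 76900 against 93079 to 111875 CPM in TruSeq, with 5, 3 and 3 called lower and 2, 1 and 1 higher. The 7 endothelial markers summed to 252 to 303 against 350 to 377 CPM, 54.5 to 68.3 against 88.3 to 129 CPM and 90.2 to 116 against 171 to 195 CPM, with 3, 2 and 5 called lower and 2, 0 and 1 higher. Beside these marker calls, 10.8%, 7.41% and 21.8% of all genes were called lower and 6.78%, 3.6% and 12.3% higher. The part of red cell, hepatocyte or endothelial RNA in the declines of Cpox, Fech, Urod and the P450 enzymes below was not tested.

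Hmox1 (ENSMUSG00000005413, 5 exons, chr8:77617490-77624495, plus strand), the inducible heme oxygenase, rose in every kit. In Pico its level was 50.4, 44 and 30.9 CPM in I9579, I9582 and I9583 and 11.3, 15.8 and 15.2 CPM in U9574, U9575 and U9576. In V4 it was 62.3, 38.6 and 27.2 CPM against 20.2, 9.76 and 9.88 CPM. TruSeq gave 51, 36.4 and 24.8 CPM against 19.2, 12.2 and 12.4 CPM. All IL-1β mice lay above all saline mice, with I9583 nearest to them in each kit. The log2 fold change was 1.55 (SE 0.26, adjusted p = 0.000512) in Pico, 1.69 (SE 0.38, adjusted p = 0.0173) in V4 and 1.33 (SE 0.27, adjusted p = 0.00414) in TruSeq, or 2.92-, 3.23- and 2.51-fold. In V4 the call was lost without I9582 (adjusted p = 0.0599), U9575 (adjusted p = 0.0974) or U9576 (adjusted p = 0.0872), while the log2 fold change was still 1.38 or more without any 1 mouse.

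Outside hepatocytes, macrophages are known to express heme oxygenase and neutrophils haptoglobin. The 10 Kupffer cell marker symbols name 9 genes, since Emr1 and Adgre1 are the same gene, and all were measured in each kit. Their summed level was 120 to 169 CPM after IL-1β against 218 to 288 CPM after saline in Pico. It was 54.2 to 86.2 against 104 to 205 CPM in V4 and 75.6 to 107 against 152 to 251 CPM in TruSeq. Of the 9 genes 0, 0 and 1 were called higher and 4, 2 and 6 lower, in the same order of kits. Among all genes 6.78%, 3.6% and 12.3% were called higher and 10.8%, 7.41% and 21.8% lower. Of 11 neutrophil symbols 7, 9 and 10 were measured, and their summed level was 39.5 to 49.9 against 0.971 to 5.14 CPM in Pico, 42.8 to 81.7 against 2.15 to 5.41 CPM in V4 and 45.7 to 89.9 against 3.36 to 6.32 CPM in TruSeq. Of these 7, 6 and 7 were called higher, while Mpo was measured in no kit and Ly6g in TruSeq only. Where measured, Ly6g and Elane had at most 6 counts in total over the 6 libraries of a kit, as did Camp in TruSeq. Neutrophil markers thus rose and Kupffer cell markers mostly fell or were not called with IL-1β, and the part of either in the rise of Hmox1, Hp and Hpx was not tested.

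Along the route from heme to bile, 8 further genes were measured. Of these 0 were called higher in any kit and 6, 2 and 5 lower in Pico, V4 and TruSeq. Of all genes 6.78%, 3.6% and 12.3% were called higher and 10.8%, 7.41% and 21.8% lower. Hmox2, the constitutive heme oxygenase, was called lower in Pico (-0.52, adjusted p = 0.0387) and had -0.16 (adjusted p = 0.686) in V4 and -0.15 (adjusted p = 0.298) in TruSeq. Blvra, a biliverdin reductase, had 0.54, -0.05 and 0.37 (adjusted p = 0.344, 0.899 and 0.0658). Blvrb, the other biliverdin reductase, had -0.43, -0.51 and -0.49 and was called lower in TruSeq (adjusted p = 0.0302, against 0.208 and 0.0884). Ugt1a1, which conjugates bilirubin, had -0.65, -0.47 and -0.78 and was called lower in Pico (adjusted p = 0.000681) and TruSeq (adjusted p = 0.000326). Reads of Ugt1a1 can be split with the other Ugt1a genes, which share its last exons. Abcc2, the canalicular exporter of conjugated bilirubin, fell in all kits (-1.31, -1.28 and -1.26, adjusted p = 1.6e-07, 0.00282 and 7.1e-05), as did Slco1b2, a sinusoidal uptake transporter (-0.57, -0.78 and -0.90, adjusted p = 0.000298, 0.0179 and 0.000702). The median log2 fold change of the list was -0.58, -0.49 and -0.56, beside -0.12, -0.22 and -0.17 over all genes.

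Hp (ENSMUSG00000031722, 5 exons, chr8:112099030-112103072, minus strand) was among the most abundant of the 9 genes and rose in every kit. In Pico its level was 5866, 6864 and 6924 CPM after IL-1β and 1927, 1566 and 1863 CPM after saline. In V4 it was 19894, 21582 and 23411 CPM against 5918, 5667 and 5993 CPM. For TruSeq the values were 11017, 11699 and 13829 CPM against 2695, 2330 and 2999 CPM. Each IL-1β value was above all saline values of the kit by a margin wider than the range of either group. Its log2 fold change was 1.88 (SE 0.08, adjusted p = 9.7e-11) in Pico, 1.88 (SE 0.09, adjusted p = 8.6e-07) in V4 and 2.19 (SE 0.12, adjusted p = 2.8e-06) in TruSeq, or 3.67-, 3.68- and 4.56-fold.

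Hpx (ENSMUSG00000030895, 10 exons, chr7:112740127-112748630, minus strand) rose alongside. Its level in Pico was 5951, 6587 and 7132 CPM after IL-1β and 1754, 1747 and 1652 CPM after saline. In V4 it was 17727, 20797 and 22353 CPM against 5118, 5651 and 4782 CPM. In TruSeq it was 15341, 15230 and 17589 CPM against 3616, 3416 and 3532 CPM. The saline mice of a kit lay close together and far below the IL-1β mice. That gave log2 fold changes of 1.93 (SE 0.07, adjusted p = 1.4e-11) in Pico, 1.97 (SE 0.11, adjusted p = 2.6e-06) in V4 and 2.19 (SE 0.08, adjusted p = 5.5e-07) in TruSeq, or 3.81-, 3.91- and 4.55-fold. Hp and Hpx together took 0.35% (Pico), 1.1% (V4) and 0.62% (TruSeq) of all gene counts after saline and 1.31%, 4.19% and 2.82% after IL-1β, as means of 3 mice.

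**Figure D3:**
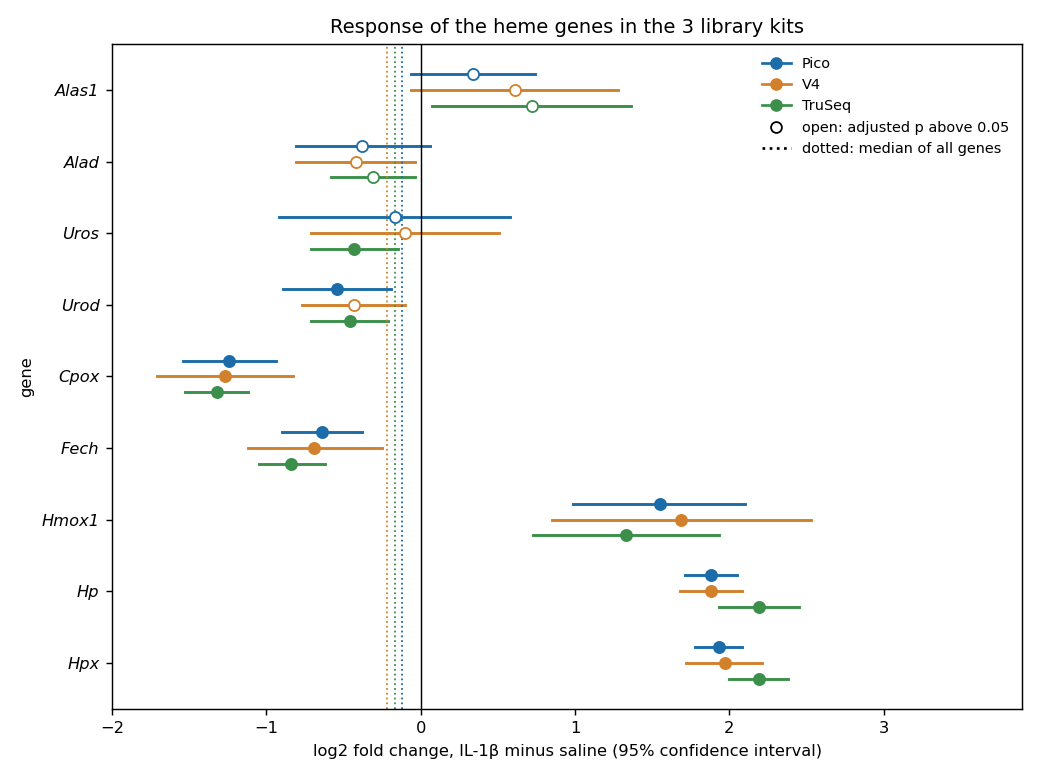
Log2 fold change (IL-1β minus saline, x axis) of each heme gene in the 3 kits with its 95% confidence interval, where filled points are called at an adjusted p of 0.05 or less and dotted lines mark the median of all genes in each kit. Cpox and Fech lie below and Hmox1, Hp and Hpx above the medians in every kit, with Alas1 between 0.34 and 0.72 and open.

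Levels were compared between genes only per length, as CPM per kilobase of annotated exon on library totals. After saline Hp and Hpx were the 2 highest of the 9 genes in each kit, Hp at 1329 ± 143 (SD, n = 3), 4363 ± 127 and 1991 ± 249 in Pico, V4 and TruSeq and Hpx at 1162 ± 38.7, 3507 ± 296 and 2382 ± 67.9. They did not differ beyond their spread in Pico, and their order was Hp first in V4 and Hpx first in TruSeq. Alas1 came next at 278 ± 109, 273 ± 161 and 156 ± 82.1 in Pico, V4 and TruSeq, overlapping Alad in V4. Fech, Cpox, Urod and Alad followed with means between 21.6 and 169, of which these neighbours overlapped between mice: Fech and Cpox in Pico and V4, Urod and Alad in Pico, Cpox and Urod in V4, and Cpox and Alad in TruSeq. Hmox1 and Uros were lowest, Hmox1 at 6.52 ± 1.14 (Pico), 6.15 ± 2.78 (V4) and 6.75 ± 1.85 (TruSeq) and Uros at 2.63 ± 0.259, 7.83 ± 3.01 and 5.34 ± 0.491, and they overlapped in V4 and TruSeq. After IL-1β Hmox1 stood at 19.3 ± 4.59, 19.8 ± 8.27 and 17.3 ± 6.06, overlapping Cpox at 20 ± 1.27, 23.3 ± 2.51 and 17.7 ± 0.838. Alad held a higher place in V4, at 169 ± 38.8 after saline, than in Pico, at 21.6 ± 4.73, and in TruSeq, at 40.8 ± 5.8. That gap between kits was not tested, since the tables were normalized separately.

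The response itself was compared between kits by an interaction of kit and treatment over 12 libraries. That fit took the libraries as independent, although the same 6 mice were in each kit. A fit with the mouse as a block is given further below. No heme gene was called in any of the 3 pairs of kits (limma-voom), and of all genes 0% were called for Pico against TruSeq, 0% for V4 against TruSeq and 0% for Pico against V4. At an unadjusted p under 0.05 there were 945, 1090 and 900 genes, 5.49%, 6.36% and 5.49% of those tested, and among the heme genes only Hpx, between Pico and TruSeq. The response of Hpx was -0.26 in Pico minus TruSeq on the log2 scale (95% confidence interval -0.49 to -0.03, adjusted p = 0.9), and that of Hp was -0.31 (-0.64 to 0.01, adjusted p = 0.9). For V4 minus TruSeq they were -0.22 (-0.52 to 0.08, adjusted p = 0.922) and -0.31 (-0.63 to 0.01, adjusted p = 0.813). Over the 9 genes the difference lay from -0.38 to 0.26 for Pico minus TruSeq, from -0.31 to 0.36 for V4 minus TruSeq and from -0.27 to 0.05 for Pico minus V4. The 95% interval reached 0.23 to 1.21 to either side, widest for Uros in Pico minus V4. Counts were simulated without a shared mouse effect. The changed genes averaged 20 or more counts in every kit and responded in the first kit of a pair only. In these simulated counts a difference of 1 on the log2 scale was recovered for few of the changed genes. The shares were 24.5% for Pico minus TruSeq, 2% for V4 minus TruSeq and 0% for Pico minus V4. For a difference of 2 they were 88.5%, 79.5% and 58%. The lack of a call thus does not show that the kits gave the same response.

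Genes around heme metabolism were read from lists. Of 12 genes for mitochondrial transport and assembly, 1 was called higher in each kit and 3, 2 and 7 lower in Pico, V4 and TruSeq. The one that rose was Clpx, the unfoldase of a mitochondrial protease that acts on ALAS, at 0.99 (adjusted p = 0.000446), 0.90 (adjusted p = 0.0273) and 0.87 (adjusted p = 0.00354). Tmem14c, a carrier of protoporphyrinogen, fell (-0.68, -0.63 and -0.68, adjusted p = 0.0339, 0.044 and 0.00236), as did Pgrmc1, a heme-binding partner of ferrochelatase (-0.31, -0.50 and -0.45, adjusted p = 0.0231, 0.0243 and 0.00318). The median of the list was -0.32, -0.28 and -0.48. Of the 6 measured genes for heme and hemoglobin uptake and export, 0 were called higher and 1, 0 and 4 lower. Their median was -0.32, -0.47 and -0.61. Beside both lists, 6.78%, 3.6% and 12.3% of all genes were called higher and 10.8%, 7.41% and 21.8% lower. The median over all genes was -0.12, -0.22 and -0.17.

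Of 9 measured liver enzymes that carry heme, 1 was called higher in each kit and 6, 5 and 6 lower, with a median of -0.51, -0.59 and -0.62. Of all genes 6.78%, 3.6% and 12.3% were called higher and 10.8%, 7.41% and 21.8% lower. Cyp7a1, the rate-limiting enzyme of bile acid synthesis, fell most (-5.93, -5.71 and -5.84 on the log2 scale, adjusted p = 3.9e-07, 3.3e-05 and 2.7e-06), and Cyp8b1, which directs synthesis to cholic acid, also fell (-1.69, -1.59 and -1.92, adjusted p = 9.3e-05, 0.00271 and 0.00019). The one that rose was Cyp2b10, a drug-metabolizing P450, at 2.30, 1.99 and 2.08 (adjusted p = 0.000197, 0.00901 and 0.00206).

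Of 17 regulators of heme genes, 3, 1 and 5 were called higher and 6, 5 and 4 lower, with a median of -0.26, -0.20 and -0.28. Of all genes 6.78%, 3.6% and 12.3% were called higher and 10.8%, 7.41% and 21.8% lower. Their median was -0.12, -0.22 and -0.17. Nr1i3, which encodes the nuclear receptor CAR, fell (-3.94, -3.32 and -4.40, adjusted p = 1.7e-08, 3.7e-06 and 4.8e-07), and Esrra, a nuclear receptor for mitochondrial genes, did so too (-2.12, -1.25 and -1.57, adjusted p = 0.00241, 0.0175 and 0.000338). Stat3, the acute-phase transcription factor, rose by 1.69, 1.81 and 1.68 (adjusted p = 5.9e-07, 0.000206 and 8.4e-05). Of 10 targets of NRF2, a factor that also acts on Hmox1, 4, 2 and 3 were called higher and 2 lower in each kit. Their median was 0.07, 0.04 and 0.04. In Pico the higher calls include a gene with counts of 1, 4 and 3 after IL-1β and 0 in each saline mouse. That gene was not called in V4 or TruSeq. Osgin1, an oxidative stress response gene, fell (-2.39, -2.32 and -2.14, adjusted p = 0.000183, 0.00273 and 0.00153). Txnrd1, thioredoxin reductase, rose by 1.16, 0.95 and 1.16 (adjusted p = 2.1e-06, 0.00771 and 2.4e-05), and Gsr, glutathione reductase, by 0.53, 0.64 and 0.98 (adjusted p = 0.0133, 0.0311 and 0.000185). The list thus held calls in both directions beside the rise of Hmox1.

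**Figure D4:**
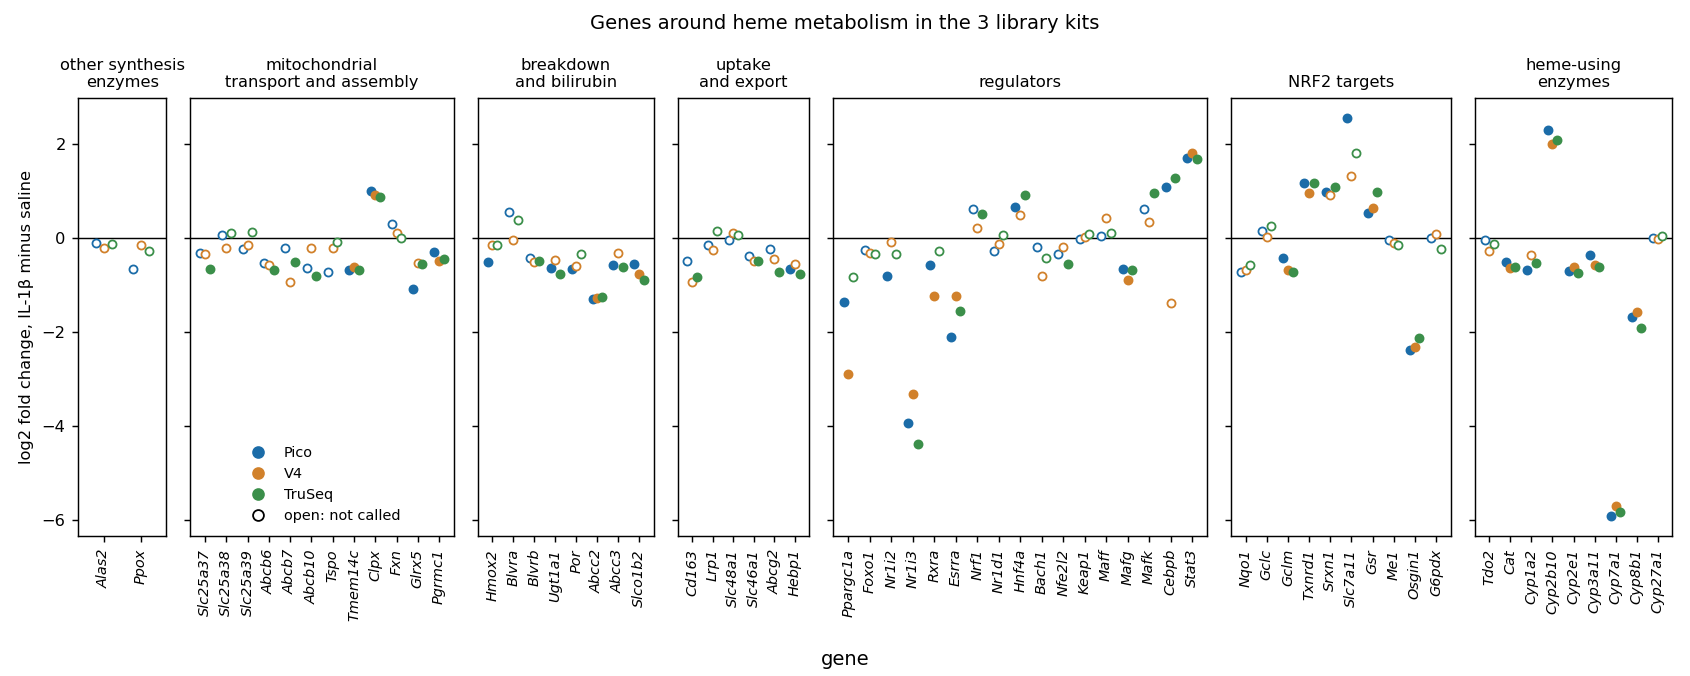
Log2 fold change (IL-1β minus saline, y axis) of genes measured in 7 lists around heme metabolism, one colour per kit, filled where the adjusted p is 0.05 or less. Cyp7a1 and Nr1i3 lie lowest, most called genes of transport, breakdown and uptake lie below 0, and NRF2 targets lie on both sides.

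The genes whose levels followed a heme gene most closely over the 6 libraries of a kit were taken by the mean of the within-kit Pearson correlations of log2 CPM, among 8959 genes. These values are descriptions, since the libraries share the treatment and the depth of their kit. For Hp they were Gm10309 (0.996), Orm1 (0.996) and Serpina3n (0.996), and 476 genes reached 0.9 or more. For Hpx they were Gm10309 (0.998), Serpina3n (0.997) and Orm2 (0.997), with 493 genes at 0.9 or more. For Hmox1 they were Hif1a (0.966), Smad1 (0.966) and Cp (0.960), with 144 such genes. For Alas1, whose level set U9576 beside the IL-1β mice, they were Serpina4-ps1 (0.903), Lpin1 (0.903) and Cish (0.896), and only 2 genes reached 0.9. Orm1 and Orm2, near-identical copies, can share reads.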

How the data were processed

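Liver RNA of 6 mice was measured in 3 kits, 3 mice per treatment. The authors aligned reads to mm9 with GSNAP, removed ribosomal reads, resampled to a like depth within each kit with PORT and counted reads per gene; the deposited values are whole-number counts, stranded (sense) except in V4, where both strands are summed. The run behind the Pico table is not given in the sources used here, and unique mapping of the counted reads is assumed. The tables' coordinates are padded, so those of the GENCODE mm9 annotation were used.

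Within a kit, treatments were compared with limma-voom (R 4.3.3, limma 3.58.1) scaled on library totals, for all genes with a count in any of its libraries, with Benjamini-Hochberg adjustment over all genes; fold changes are those of the fit. Kits were compared by an interaction over 12 libraries. Fits were checked on simulated counts, with changed genes drawn from those averaging 20 or more counts in every kit. In each simulation 200 genes changed by 1 or by 2 on the log2 scale. At 1, 50% (Pico), 14.5% (V4) and 94% (TruSeq) of these genes were called in the right direction, and at 2, 95%, 77.5% and 100%. False calls made up 5.66%, 17.1% and 5.05% of calls at 1 and 9.95%, 10.4% and 4.31% at 2. Differences between kits were recovered less often, as given with the comparison of kits. Alternatives were TMM factors, edgeR 4.0.16, DESeq2 1.42.0, at least 10 counts in 3 libraries, thinning to 4024632 counts, adjusted p of 0.1 and 0.01, each mouse left out, the mouse as a block and, for levels per length, TMM-scaled library sizes. Mouse numbers pair libraries of the same animal: deviations from group means correlated at 0.194 to 0.446 (Pico, TruSeq), 0.168 to 0.458 (V4, TruSeq) and 0.0796 to 0.234 (Pico, V4). Between animals they correlated at -0.36 to -0.0327. Deviations from a mean of 3 mice cancel within the group, so these negative values follow from the positive ones and are no separate baseline. Libraries of a group differed beyond sampling noise.

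The members and lists were chosen with earlier results of these data known. Named genes are the 9 members, Alas2, Ppox, Hmox2, Blvra, Blvrb, Ugt1a1, up to 3 genes of each other list with the largest mean change among those called in all kits in 1 direction, and for 4 members the 3 genes of highest mean correlation (pseudocount 0.5 CPM). Summaries and plots used matplotlib 3.10.9, scipy 1.17.1, pandas 2.3.3 and numpy 2.4.6 in Python 3.11.15. One gene within this rule is not reported here. Antisense reads, introns and duplication were not analysed here.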

Additional observations from a re-analysis of the deposited data

How the results depend on the processing

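The calls of Hp, Hpx and Cpox held in all kits under TMM factors, edgeR, DESeq2, the count minimum, thinning and each mouse left out, and those of Fech and Hmox1 held in Pico and TruSeq. With TMM factors, edgeR, DESeq2 or an adjusted p of 0.01, 1 heme gene was called lower in V4 in place of 2, and 2 in TruSeq in place of 4. Leaving out 1 mouse gave 1 to 2 in V4 and 3 to 4 in TruSeq. The cause was not tested.

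The log2 fold change of Uros turned sign in Pico with edgeR (0.02) and DESeq2 (0.02), in V4 with TMM factors (0.08) and DESeq2 (0.00), and with a mouse left out (-0.44 to 0.13 in Pico and -0.34 to 0.19 in V4). For the difference between kits, TMM factors turned that of Pico minus V4 for Alad (-0.03), Cpox (-0.05) and Fech (-0.04). With a mouse left out, Pico minus TruSeq ran from -0.31 to 0.17 for Alad, -0.15 to 0.02 for Urod, -0.01 to 0.16 for Cpox and -0.15 to 0.42 for Hmox1. V4 minus TruSeq ran from -0.05 to 0.12 for Urod and -0.04 to 0.23 for Cpox. Pico minus V4 ran from -0.26 to 0.36 for Alad, -0.43 to 0.24 for Uros, -0.07 to 0.15 for Cpox, -0.11 to 0.27 for Fech, -0.64 to 0.12 for Hmox1 and -0.07 to 0.05 for Hp. None of these differences was called in any setting. With the mouse as a replicate block (consensus correlation 0.188 for Pico with TruSeq, 0.181 for V4 with TruSeq and 0.0991 for Pico with V4), 0 heme genes differed in response between kits, as without it, and no call changed.

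Over all genes, an adjusted p of 0.01 left 1884 calls in Pico, 764 in V4 and 4081 in TruSeq, of 3179, 1986 and 6614, and an adjusted p of 0.1 gave 2982 in V4. Leaving out 1 mouse gave 1765 to 2603 calls (Pico), 908 to 2093 calls (V4) and 5114 to 5606 calls (TruSeq), and the shares of all genes called move with these. The count fell by over 1.5 times without I9579 (1997), I9582 (1765) or I9583 (2034) in Pico and without I9579 (1196), I9582 (969), I9583 (1059), U9574 (1143) or U9575 (908) in V4. With TMM-scaled library sizes 11 of 54 levels per length moved by more than 1 SD, while the order of genes within a library cannot change. Uros had the lowest counts of the heme genes in Pico, at 22 to 49 a library. In TruSeq thinned to 4024632 counts it was still called lower (-0.58, limma-voom adjusted p = 0.041). The part of depth in its Pico values was not tested.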

Other observations

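Cebpb, which encodes the acute-phase factor C/EBPβ and was singled out after its values were seen, went opposite ways in the kits on the same RNA. Its counts were 1831, 1736 and 1267 after IL-1β against 872, 595 and 878 after saline in Pico (log2 fold change 1.07, limma-voom adjusted p = 0.000133), and 419, 318 and 416 against 179, 121 and 197 in TruSeq (1.27, adjusted p = 0.000748). In V4 they were 375, 386 and 292 against 1696, 1387 and 341 (-1.40, adjusted p = 0.129), with saline mice U9574 and U9575 high and U9576 level with the IL-1β mice. As for every gene, the interaction of kit and treatment was not called.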
